A study of Mus musculus with 6 samples.

Results

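The 6 genes described here, Pou5f1, Sox2, Nanog, Sall4, Utf1 and Foxd3, encode transcription factors of the pluripotency core, and they were taken by symbol from the 28584 genes of the expression table. All 6 were found, and all 6 were among the 18556 genes tested, which reached 1 TPM or more in 2 or more libraries. The study asked whether oncostatin M (OSM), a cytokine of the interleukin 6 family, can keep mouse embryonic stem cells (mESCs) pluripotent in place of leukemia inhibitory factor (LIF). A single mESC line, derived from a C57BL/6 x 129S6 blastocyst, was grown for 5 passages on MEF feeder cells inactivated with mitomycin C and then split into 3 media, so the comparisons hold for this line. LIF-ESCs received 1000 U/mL LIF, OSM-ESCs received 10 ng/mL OSM, and -LIF-ESCs received neither cytokine in the same basic medium with serum. Polyadenylated RNA was sequenced at passage 10 (P10) from 2 replicates a group, 6 libraries in all. The study calls them biological replicates, and the labels do not say whether they were separate cultures of the line, so p-values measure the spread between these libraries, which may be technical.

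Oct4 (encoded by Pou5f1) and Sox2 bind DNA side by side at composite sites and together activate many genes of the undifferentiated state, their own genes included. Nanog, a homeodomain protein, stabilises self-renewal, and Sall4, a zinc finger protein, binds with Oct4 and Nanog and helps to maintain Pou5f1 transcription. Utf1 is a chromatin-associated factor and a classical Oct4-Sox2 target, and Foxd3 is a forkhead factor of the epiblast and of ESCs.

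Proximal promoters are shown because the Oct4 and Sox2 sites that link the genes to each other can be looked for in the DNA itself. Windows of 250 bases before an annotated start were taken from RefSeq (GRCm38.p6), which held 7 windows for 5 of the 6 genes (all but Sall4). These starts can differ from the GENCODE gene starts given further below. For Sox2 the window ends at 34649994, and the GENCODE gene starts at 34650405. Motifs were searched on both strands as ATGCAAA for OCT, CATTGT for SOX, and a SOX motif followed within 3 bases by an OCT motif as a SOX-OCT pair, which overlaps the single motifs by definition. In the lines that follow, capitals mark the motifs found.
Nanog (chr6:122707239-122707488, plus strand): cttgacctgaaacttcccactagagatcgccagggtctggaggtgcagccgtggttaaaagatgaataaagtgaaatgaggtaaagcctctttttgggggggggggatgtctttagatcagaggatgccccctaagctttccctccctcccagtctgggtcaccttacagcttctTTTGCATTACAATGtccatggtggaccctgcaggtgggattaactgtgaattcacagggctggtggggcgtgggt
Sox2 (chr3:34649745-34649994, plus strand): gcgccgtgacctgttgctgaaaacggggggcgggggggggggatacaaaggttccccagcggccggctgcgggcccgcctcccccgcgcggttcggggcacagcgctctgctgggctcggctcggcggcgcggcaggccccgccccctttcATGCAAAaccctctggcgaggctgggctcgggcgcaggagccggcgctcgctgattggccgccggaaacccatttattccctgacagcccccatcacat
Pou5f1 (chr17:35505782-35506031, plus strand): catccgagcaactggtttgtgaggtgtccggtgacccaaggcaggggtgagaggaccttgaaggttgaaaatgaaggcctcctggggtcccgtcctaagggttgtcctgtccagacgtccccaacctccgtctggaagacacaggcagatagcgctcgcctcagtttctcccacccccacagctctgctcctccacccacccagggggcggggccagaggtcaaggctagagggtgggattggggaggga
The Nanog window held a SOX-OCT pair on the minus strand, from 75 to 62 bases before the start. Such windows before annotated starts numbered 32851, for 27025 genes, and the rest of the genome was not searched. The pair occurred in 3 of them, of which 2 were overlapping Nanog windows and 1 belonged to Acyp1 (0.00913% of windows). The Sox2 window held the OCT motif from 99 to 93 bases before the RefSeq start, a motif present in 4.12% of all windows. No motif was found in the first Pou5f1 window, while a second window further into the gene held the SOX motif, which 10.7% of all windows hold. The windows of Utf1 and Foxd3 held none of these motifs, and the STAT motif TTCNNNGAA, present in 7.02% of all windows, was found in none of the 7. A match is a description of the letters, and a window without a match says nothing about binding elsewhere. Only the letters given above were searched, so sites with other letters were not counted. A link between motifs and the direction of change was not tested.

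The libraries were of similar depth. Reads recovered from the deposited values numbered between 20712941 and 28994417 per library, and replicates differed beyond sampling noise, the chi-square per gene averaging 1.93 to 3.26 within a group. Markers of embryonic stem cells were present throughout, with 10 of 10 at 1 TPM or more in the cells without cytokine and 9 of 10 with either cytokine, where Fut4 was below 1 TPM. By limma, 7 of the 10 were higher and 2 lower with either cytokine than without (adjusted p under 0.05). The -LIF-ESCs stood apart across the whole transcriptome. Of all genes tested, 42.2% were higher and 25.9% lower in LIF-ESCs than in -LIF-ESCs by limma (adjusted p under 0.05). For OSM-ESCs against the same controls the shares were 42.9% higher and 25.4% lower. Over all genes the log2 fold changes had a median of 0.165 and 0.182 in these comparisons, and 0.017 and 0.020 once the libraries were rescaled by their median ratio. After that rescaling the genes past the test split into 34.5% higher and 33% lower for LIF-ESCs and into 34.4% higher and 32.9% lower for OSM-ESCs. For this reason a rescaled log2 fold change is given beside that of each gene.

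Most of the core factors were expressed at a higher level with either cytokine than without, and Nanog went the other way. In LIF-ESCs 5 genes (Pou5f1, Sox2, Sall4, Utf1 and Foxd3) were past the test as higher than in -LIF-ESCs and 1 (Nanog) as lower, and in OSM-ESCs the counts were again 5 and 1, with the same genes. All 6 genes had libraries of -LIF-ESCs that did not overlap with those of LIF-ESCs or OSM-ESCs. Such separation was common, since 50.9% of all genes were higher and 33.4% lower without overlap with LIF, and 51.5% and 32.4% with OSM. When a log2 fold change of at least 1 was also required, as in the methods of the study, 3 genes remained higher in each comparison (Pou5f1, Sall4 and Foxd3) and none lower. By that rule 13.3% of all genes were higher and 8.09% lower with LIF, and 14.2% and 7.86% with OSM. Pou5f1 was below 1 after rescaling (0.92 with LIF and 0.93 with OSM). It was also below 1 by limma voom on recovered reads (0.96 and 0.99). Sall4 and Foxd3 stayed above 1 in both settings. In bulk RNA, fewer cells that express a gene and less RNA of it per cell cannot be told apart, and the control libraries are shared by both comparisons.

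**Figure D1:**
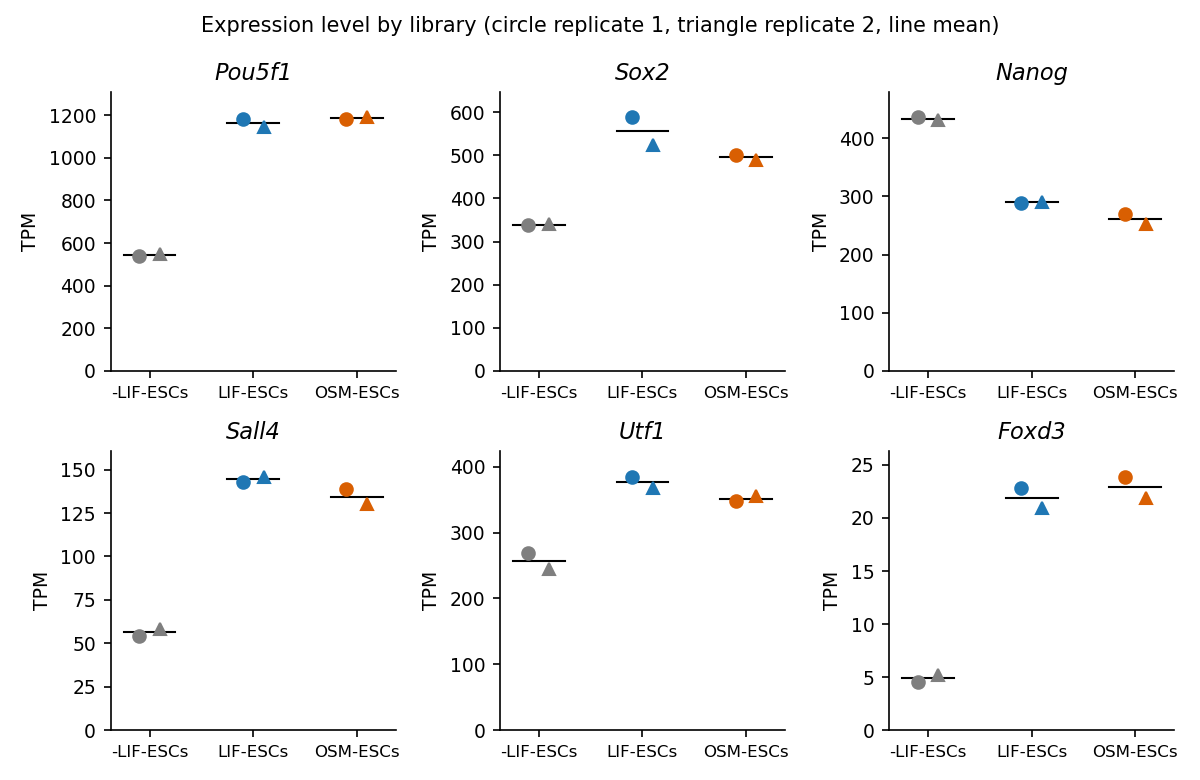
Expression level in TPM (linear axis from 0) of each of the 6 core factors in the 6 libraries, with circles for replicate 1, triangles for replicate 2 and a line at the mean of each group. Pou5f1, Sox2, Sall4, Utf1 and Foxd3 sit lowest in -LIF-ESCs, whereas Nanog sits highest there, at 436 and 431 TPM.

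Pou5f1 (ENSMUSG00000024406.16, chromosome 17, plus strand, 35506018 to 35510772 in GRCm38, 6 exonic blocks) encodes Oct4, a POU factor without which the pluripotent state is not kept. Its level was 540 and 551 TPM in the -LIF-ESC libraries, 1182 and 1147 TPM in LIF-ESCs, and 1181 and 1190 TPM in OSM-ESCs. Both -LIF-ESC libraries were low and the other 4 libraries overlapped each other. The mean level rose from 545 ± 8.05 TPM (SD, n = 2) to 1165 ± 24.7 TPM with LIF, which was 2.14-fold and a log2 fold change of 1.09 (SE 0.0307, limma adjusted p = 8.82e-06). With OSM the mean was 1186 ± 6.62 TPM, 2.17-fold that of -LIF-ESCs (log2 fold change 1.12, limma adjusted p = 7.79e-06). Rescaled, the log2 fold changes were 0.92 and 0.93, both still past the test and both below 1. In rank among the 18556 genes, Pou5f1 stood at 243 and 240 in -LIF-ESCs and between 72 and 79 in the other libraries, so that it was also among the abundant transcripts of cells grown without cytokine.

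Sox2 (ENSMUSG00000074637.7, chromosome 3, plus strand, 34650405 to 34652461, a gene of 1 exon) encodes the HMG-box partner of Oct4. The -LIF-ESC libraries were at 338 and 341 TPM, the LIF-ESC libraries at 588 and 525 TPM, and the OSM-ESC libraries at 500 and 490 TPM. Each group was separate from the others, with LIF-ESCs highest and with the widest gap between replicates. LIF-ESCs exceeded -LIF-ESCs 1.64-fold (log2 fold change 0.71, SE 0.0575, limma adjusted p = 0.000218), and OSM-ESCs did so 1.46-fold (log2 fold change 0.54, limma adjusted p = 0.000584). The rescaled values were 0.54 and 0.36. The change of Sox2 was thus smaller than that of its partner in the same libraries, and the ratio of Sox2 to Pou5f1 was 0.626 and 0.619 without cytokine, 0.498 and 0.458 with LIF, and 0.424 and 0.412 with OSM.

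Nanog (ENSMUSG00000012396.12, chromosome 6, plus strand, 122707489 to 122714633, 5 exonic blocks), whose promoter pair is printed above, was the only member with its highest level in -LIF-ESCs. It was at 436 and 431 TPM in -LIF-ESCs, 289 and 291 TPM in LIF-ESCs, and 270 and 252 TPM in OSM-ESCs. The groups did not overlap, and the OSM-ESC libraries were the lowest. The mean fell from 433 ± 3.6 TPM (SD, n = 2) to 290 ± 0.838 TPM with LIF (log2 fold change -0.58, SE 0.0416, limma adjusted p = 0.000144) and to 261 ± 13.2 TPM with OSM (log2 fold change -0.73, limma adjusted p = 6.37e-05). Rescaling moved these values away from 0, to -0.75 and -0.92. Put the other way, -LIF-ESCs held 1.49-fold the Nanog level of LIF-ESCs and 1.66-fold that of OSM-ESCs.

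Sall4 (ENSMUSG00000027547.17, chromosome 2, minus strand, 168748332 to 168767943, 7 exonic blocks), the zinc finger partner of Oct4 and Nanog, had a larger log2 fold change than either. Its libraries were at 54.3 and 58.3 TPM in -LIF-ESCs, 143 and 146 TPM in LIF-ESCs, and 139 and 130 TPM in OSM-ESCs. The -LIF-ESC libraries lay far below the other 4, among which every LIF-ESC value was above every OSM-ESC value. The level was 2.56-fold that of -LIF-ESCs with LIF (log2 fold change 1.34, SE 0.0534, limma adjusted p = 2.27e-05) and 2.39-fold with OSM (log2 fold change 1.24, limma adjusted p = 2.69e-05). Rescaled values of 1.17 and 1.06 stayed above 1.

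Utf1 (ENSMUSG00000047751.9, chromosome 7, plus strand, 139943789 to 139945112, 2 exonic blocks), which is bound and activated by Oct4 with Sox2, was at 269 and 244 TPM in -LIF-ESCs, 385 and 368 TPM in LIF-ESCs, and 348 and 355 TPM in OSM-ESCs. Without cytokine both libraries were lowest, and the 3 groups were separate. Its change was the smallest among the 5 genes that rose, at 1.47-fold with LIF (log2 fold change 0.55, SE 0.0556, limma adjusted p = 0.000494) and 1.37-fold with OSM (log2 fold change 0.45, limma adjusted p = 0.00103). Rescaled, it came to 0.38 and 0.27, and both were past the test.

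Foxd3 (ENSMUSG00000067261.4, chromosome 4, plus strand, 99656299 to 99658622, a gene of 1 exon), the forkhead factor, had the lowest level and the largest change of the 6. It stood at 4.52 and 5.23 TPM in -LIF-ESCs, 22.8 and 20.9 TPM in LIF-ESCs, and 23.9 and 21.9 TPM in OSM-ESCs. The -LIF-ESC libraries were separate from the rest, and the LIF-ESC and OSM-ESC libraries overlapped. The mean level was 4.49-fold that of -LIF-ESCs with LIF and 4.69-fold with OSM. On the log2(TPM + 1) scale, which understates changes of low genes, the differences were 1.96 (SE 0.0892, limma adjusted p = 3.31e-05) and 2.02 (limma adjusted p = 2.9e-05), and rescaled they were 1.81 and 1.86. These values rest on 119 and 113 reads in -LIF-ESCs and 439 to 617 in the other libraries, and the standard error from counting alone was 0.11 on the log2 scale for LIF-ESCs against -LIF-ESCs, compared with 0.011 for Pou5f1. Among all 18556 genes, 2.95% had a higher log2 fold change than Foxd3 in LIF-ESCs against -LIF-ESCs. In that comparison the share was 7.66% for Sall4, 11.8% for Pou5f1, 23.1% for Sox2 and 29.7% for Utf1. In OSM-ESCs against -LIF-ESCs it was 3.04% for Foxd3, 9.81% for Sall4, 12.2% for Pou5f1, 30.6% for Sox2 and 35.1% for Utf1. A lower log2 fold change than that of Nanog was found for 17.1% of genes with LIF and 13.1% with OSM.

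**Figure D2:**
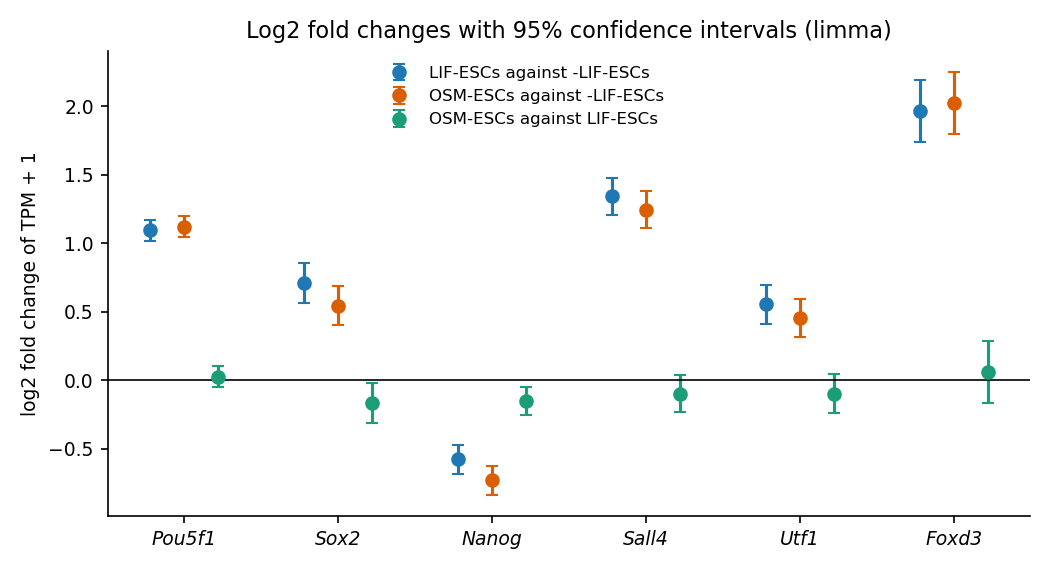
Log2 fold change of TPM + 1 (vertical axis) of each core factor in the 3 comparisons, with points for the limma estimate and bars for the 95% confidence interval. Intervals of the comparisons with -LIF-ESCs lie above 0 for 5 genes and below 0 for Nanog, while those of OSM-ESCs against LIF-ESCs are the nearest to 0 for every gene and reach furthest for Sox2, to -0.31.

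Set in order of level, the 6 genes changed places between media. TPM is per length, so levels of different genes can be compared, apart from reads shared with an overlapping gene, as described below for Pou5f1. In -LIF-ESCs the order was Pou5f1, Nanog, Sox2, Utf1, Sall4 and Foxd3, and in LIF-ESCs and OSM-ESCs it was Pou5f1, Sox2, Utf1, Nanog, Sall4 and Foxd3. In every group the libraries of neighbouring genes did not overlap. The closest neighbours were Pou5f1 and Nanog in -LIF-ESCs, whose mean levels differed 1.26-fold. Summed over the 6 genes, the level was 1641 and 1630 TPM in -LIF-ESCs, 2611 and 2497 TPM in LIF-ESCs, and 2463 and 2439 TPM in OSM-ESCs.

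The balance between the factors shifted most for Nanog. Per library, the ratio of Nanog to Pou5f1 was 0.808 and 0.782 without cytokine, 0.245 and 0.253 with LIF, and 0.229 and 0.211 with OSM. A ratio within a library does not depend on how that library was scaled. On the log2 scale the ratio differed from that of -LIF-ESCs (-0.332) by -1.67 in LIF-ESCs (-2.01) and by -1.85 in OSM-ESCs (-2.18). The exact two-sided permutation p was 0.333 in each case, which is the smallest value this exact test can give for 2 libraries against 2. Utf1 relative to Pou5f1 also had its highest values in -LIF-ESCs, at 0.499 and 0.443, against 0.295 to 0.326 in the other libraries. Sall4 and Foxd3 went the other way, with ratios to Pou5f1 of 0.101 and 0.106 for Sall4 in -LIF-ESCs against 0.109 to 0.127 elsewhere, and 0.00838 and 0.00948 for Foxd3 against 0.0183 to 0.0202.

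**Figure D3:**
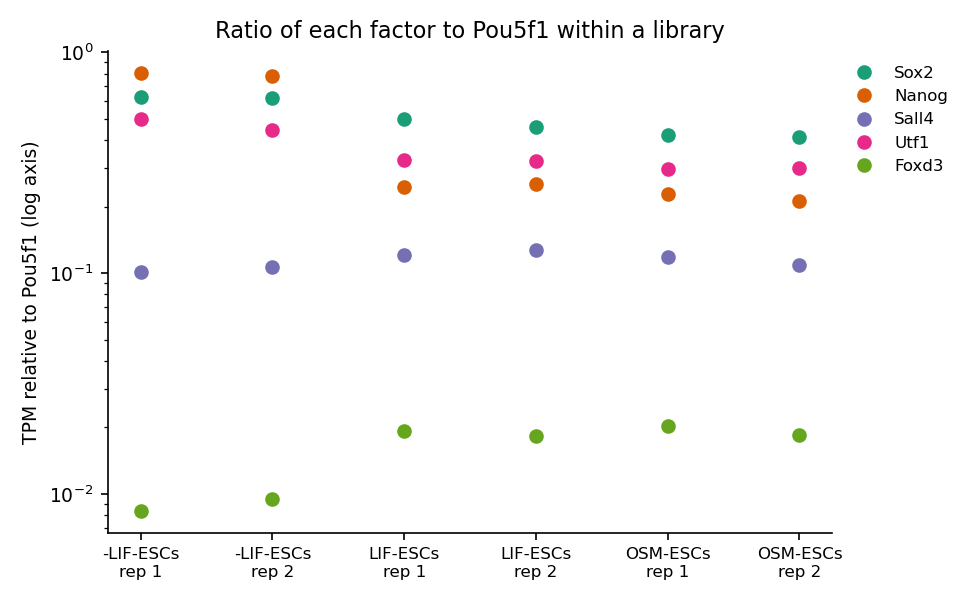
Ratio of the TPM of Sox2, Nanog, Sall4, Utf1 and Foxd3 to that of Pou5f1 in each of the 6 libraries (log axis), with 1 point per gene and library. Nanog is the gene nearest to Pou5f1 in -LIF-ESCs (0.808 and 0.782) and lies below Sox2 and Utf1 in LIF-ESCs and OSM-ESCs.

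OSM-ESCs and LIF-ESCs were compared directly to see whether the cytokines differed in their effect on the core factors. By limma 0 of the 6 genes were past the test (adjusted p under 0.05), and among all genes 0.463% were higher and 0.129% lower with OSM. Before adjustment, 2 of the 6, Sox2 and Nanog, had a p under 0.05 and a lower level with OSM, and 5.5% of all genes did so. Of the 6 genes, 4 (Sox2, Nanog, Sall4 and Utf1) had OSM-ESC libraries that were all below the LIF-ESC libraries, which 20.9% of all genes showed. For Sox2 the log2 difference was -0.17, with a 95% confidence interval of -0.31 to -0.02 (limma adjusted p = 0.277), and for Nanog it was -0.15, with an interval of -0.26 to -0.05 (limma adjusted p = 0.198). By limma voom on recovered reads both were past the test, with adjusted p = 0.00465 for Sox2 and 0.00633 for Nanog, where 2.58% of all genes were lower. Sall4 differed by -0.10 (interval -0.23 to 0.04) and Utf1 by -0.10 (interval -0.24 to 0.04). Pou5f1 differed by 0.03 (interval -0.05 to 0.10) and Foxd3 by 0.06 (interval -0.16 to 0.29). The intervals bound these differences and do not show that the levels were equal.

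Reads of an antisense gene model overlap those of Pou5f1. Gm19553 lies on the minus strand within Pou5f1 (chromosome 17, 35509077 to 35510551), and 317 of its 494 exonic bases (64.2%) are also exonic in Pou5f1, where they make up 14.1% of the exonic length. Its recovered reads numbered 9253 and 7432 without cytokine, 16422 and 15443 with LIF, and 18173 and 22799 with OSM. The ratio of these reads to those of Pou5f1 stayed between 0.645 and 0.702 in all 6 libraries. In TPM, Gm19553 ranged from 1617 to 3805 over the libraries. The strand setting of the counting is not given in the sources used here, so reads of the shared bases cannot be assigned to either gene. The level of Pou5f1, also in its ratios to other genes, is uncertain by an amount that is not known here. Sall4 shares 526 exonic bases (9.5% of its own) with Gm14261, which had 0.0717 to 0.0816 times the reads of Sall4. The miRNA model Gm23366 lies wholly within the exon of Foxd3 on the same strand and had 6 to 44 reads. Nanog-ps1, a copy named after Nanog, had 0 to 2 reads. The gene models Gm5712 and Gm21054, looked up as possible copies of a member, had 0 to 5 and 0 to 1. The exons of Sox2 shared no base with those of Sox2ot, the long noncoding gene around it.

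**Figure D4:**
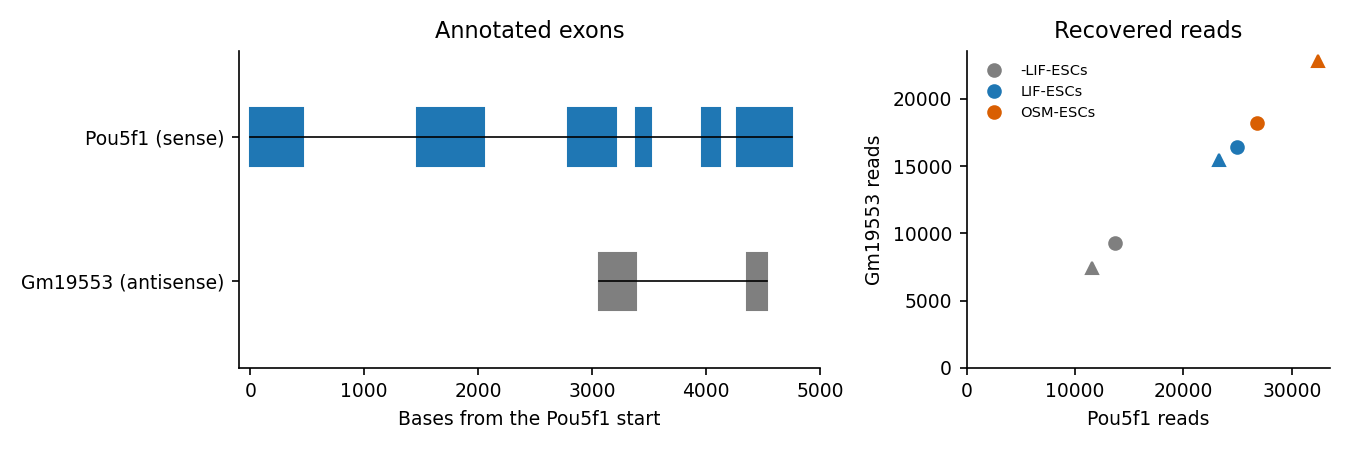
Left, exonic blocks of Pou5f1 and of the antisense model Gm19553 by distance in bases from the Pou5f1 start. Right, reads recovered for Gm19553 against those for Pou5f1 in the 6 libraries (circles replicate 1, triangles replicate 2), where the ratio stays between 0.645 and 0.702.

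Genes with the most similar profiles were found by the root mean square difference of centred log2(TPM + 1) over the 6 libraries, among 7853 genes with a mean of at least 10 TPM. This is a description, and the 6 libraries share the large difference between -LIF-ESCs and the rest. Nearest to Pou5f1 were Cyb5r1 (0.02), Spc24 (0.024) and Grtp1 (0.024), and nearest to Sox2 were Nup62cl (0.023), Taf6 (0.027) and Polrmt (0.035). For Nanog they were Ctc1 (0.027), Eif4b (0.031) and Tmem2 (0.033), of which Eif4b was also close in level, at 452, 290 and 267 TPM in -LIF-ESCs, LIF-ESCs and OSM-ESCs. Sall4 was nearest to Tm7sf3 (0.01), Tug1 (0.024) and Resf1 (0.029). Utf1 was nearest to Mfsd12 (0.021), Ucp2 (0.021) and B3gnt8 (0.022), and Foxd3 to Mylpf (0.035), Setd1b (0.045) and Arl4a (0.057). Within the core, Sox2 and Utf1 had the most similar profiles (0.085), followed by Pou5f1 and Sall4 (0.11), whereas Nanog was at 0.549 or more from each of the others.

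Known targets of Oct4 and Sox2, members left out, were mostly higher with either cytokine. Of the members left out, 5 were higher and 1, Nanog, was lower in both comparisons. Of the 15 targets, 14 were higher and 0 lower in LIF-ESCs than in -LIF-ESCs, with a median log2 fold change of 0.96 against 0.165 over all genes, and in OSM-ESCs the counts were also 14 and 0 (median 0.93). That is 93.3% higher with each cytokine, beside 42.2% of all genes with LIF and 42.9% with OSM. After rescaling, 14 targets were higher and 1 lower with LIF and 12 and 1 with OSM, the lower gene being Dppa5a, named after its values were seen. Spp1, which encodes osteopontin, was at a mean of 105 TPM in -LIF-ESCs and 1124 TPM in LIF-ESCs (log2 fold change 3.41, limma adjusted p = 1.54e-06). Dnmt3l, a cofactor of de novo DNA methylation, changed by 3.20 with LIF. Fbxo15 and Zfp42, long used as ESC reporter and marker genes, changed by 0.35 and 0.39 with LIF and by 0.13 and 0.19 with OSM.

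Among 12 transcription factors of naive pluripotency, 11 were higher and 0 lower with LIF (median log2 fold change 1.71) and with OSM (median 1.65), and rescaling left 10 and 9 higher. Before rescaling that is 91.7% higher with each cytokine, beside 42.2% of all genes with LIF and 42.9% with OSM. Klf2 and Zfp42 of this list are also among the targets above. Nr0b1, which encodes the Oct4-binding nuclear receptor Dax1, was at a mean of 20.2 TPM in -LIF-ESCs, 316 TPM in LIF-ESCs and 259 TPM in OSM-ESCs, which gave log2 fold changes of 3.90 and 3.62. Gbx2, a homeobox gene downstream of Stat3, changed by 3.46 and 3.66. At the low end, Nr5a2 changed by 0.23 and 0.20. Between the cytokines, 1 gene of this list, Nr0b1, was past the test, with a log2 difference of -0.28 for OSM-ESCs against LIF-ESCs (limma adjusted p = 0.0463). That call was lost after rescaling, with a replicate block and without any single library, and by voom 6 genes of the list were lower and 2 higher with OSM.

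Proteins that bind Oct4, Nanog or Sall4 were mixed. Of 25 partner genes, 14 were higher and 7 lower with LIF (median log2 fold change 0.30), and 15 and 7 with OSM (median 0.23). That is 56% higher and 28% lower with LIF, where 42.2% and 25.9% of all genes were. With OSM it is 60% and 28%, where 42.9% and 25.4% of all genes were. The share of lower genes was thus near that of all genes. After rescaling the split was 13 and 9 with LIF and 11 and 9 with OSM. Over all genes it was then 34.5% higher and 33% lower with LIF, and 34.4% and 32.9% with OSM. The genes of the DNA demethylation enzymes Tet2 and Tet1 changed most, by 2.82 and 2.35 with LIF. Chd4, the helicase of the NuRD complex, and Parp1, a poly(ADP-ribose) polymerase, fell by 0.51 and 0.50 on the log2 scale.

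Relatives of the members from the POU, SOX, SALL and FOXD families were mixed, and on the main scale a larger share was lower than among all genes. Of 38 listed, 22 were tested, of which 10 were higher and 8 lower in LIF-ESCs (median log2 fold change 0.02) and 8 were higher and 8 lower in OSM-ESCs (median 0.08). With LIF this came to 45.5% higher and 36.4% lower, against 42.2% and 25.9% of all genes. With OSM it came to 36.4% and 36.4%, against 42.9% and 25.4%. After rescaling, 10 of the 22 were higher and 9 lower with LIF, where 34.5% and 33% of all genes were. With OSM the rescaled counts were 8 and 8, where 34.4% and 32.9% of all genes were. Within the SALL family, Sall3 was at a mean of 0.930 TPM in -LIF-ESCs and 9.24 TPM in LIF-ESCs (log2 fold change 2.41), whereas Sall2 was at 13.8 and 3.32 TPM (log2 fold change -1.77). Sox21 changed by 2.67 and Pou2f3 by -1.73.

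Genes of the primed epiblast and of early lineages were mostly highest in -LIF-ESCs. Of 12 primed epiblast genes tested, 1 was higher and 10 were lower with LIF (median log2 fold change -0.64), and 1 and 9 with OSM (median -0.63). That is 83.3% lower with LIF and 75% with OSM, beside 25.9% and 25.4% of all genes. After rescaling, 1 was higher and 10 were lower with LIF, and 1 and 11 with OSM. Over all genes, 33% and 32.9% were then lower. Brachyury (T), the mesoderm factor, was at a mean of 60.7 TPM in -LIF-ESCs and 0.780 TPM in LIF-ESCs, and Fgf5, an epiblast growth factor, at 17.7 and 0.588 TPM. Dnmt3b, a de novo DNA methyltransferase, was the 1 gene that was higher, by 0.32 with LIF and 0.51 with OSM. On the main scale Lefty2, a Nodal inhibitor, was lower with LIF (-0.14, limma adjusted p = 0.0133) and was at -0.08 with OSM (limma adjusted p = 0.0756). Of 14 lineage factors tested, 5 were higher and 9 lower with LIF (median -1.26), and 4 and 9 with OSM (median -1.06). That is 35.7% higher and 64.3% lower with LIF, beside 42.2% and 25.9% of all genes. With OSM it is 28.6% and 64.3%, beside 42.9% and 25.4%. The share of higher genes was thus below that of all genes. After rescaling it was near it with LIF (5 higher and 9 lower, beside 34.5% and 33% of all genes). The higher lineage factors included Gata4 of the primitive endoderm (2.01 with LIF) and Sox1 of the neural plate (1.68), and Hand1 of the trophoblast and mesoderm was lower (-4.34). Between OSM-ESCs and LIF-ESCs, 0 genes of the target, partner, relative, primed and lineage lists were past the limma test, and with other settings, such as voom, up to 5 of a list were.

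**Figure D5:**
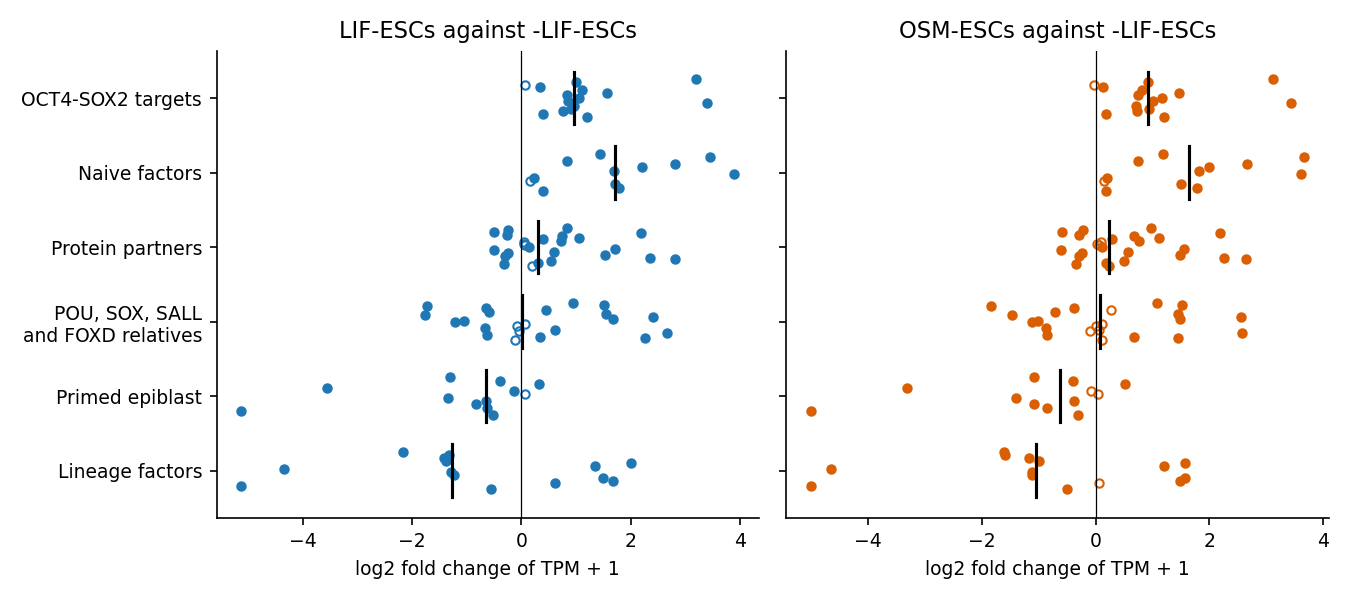
Log2 fold change of TPM + 1 of the genes in 6 lists in LIF-ESCs (left) and OSM-ESCs (right) against -LIF-ESCs, with filled points for genes past the limma test, open points for the others and a bar at the median of each list. The medians lie at 0.96 and 0.93 for Oct4-Sox2 targets, 1.71 and 1.65 for naive factors, and -1.26 and -1.06 for lineage factors.

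Markers of other cell types moved with the media as well, and their part in the differences of the core factors was not tested. Of all genes tested, 42.2% were higher and 25.9% lower with LIF, and 42.9% and 25.4% with OSM (limma, adjusted p under 0.05). Marker counts are by the same test, on the main scale only. All 12 markers of feeder fibroblasts were higher with LIF and with OSM than without, and their summed level was 178 to 187 TPM in -LIF-ESCs, 728 to 729 TPM in LIF-ESCs and 1000 to 1005 TPM in OSM-ESCs. Among them, Col3a1, Dcn, Lum, Postn, Lox and Ccl2 were below 1 TPM in -LIF-ESCs. Of the 12, 4 had a higher level with OSM than with LIF (adjusted p under 0.05, limma), beside 0.463% of all genes. Those calls were lost with a replicate block. The 8 primitive endoderm markers summed to 42.4 to 42.9 TPM in -LIF-ESCs, 115 to 116 TPM in LIF-ESCs and 93.4 to 94.3 TPM in OSM-ESCs, with 8 and 6 of them higher. Trophectoderm markers went down, with 6 of 6 lower in both groups and a summed level of 1820 to 1822 TPM in -LIF-ESCs, 57.7 to 58.8 TPM in LIF-ESCs and 66.1 to 72.0 TPM in OSM-ESCs, of which the keratin genes Krt8 and Krt18 made up most. The 6 mesoderm and primitive streak markers were all lower, at 91.8 to 95.7 TPM in -LIF-ESCs and 3.07 to 4.67 TPM in the other groups. Eomes is counted among these and among the trophectoderm markers. Neural markers summed to 59.7 to 61.8 TPM in -LIF-ESCs, 67.0 to 70.0 TPM in LIF-ESCs and 73.8 to 76.4 TPM in OSM-ESCs, with 3 higher and 1 lower in each. The 10 ESC markers, Pou5f1, Sox2 and Nanog among them, summed to 5488 to 5509 TPM, 7177 to 7195 TPM and 6766 to 6835 TPM in the 3 groups. With either cytokine, 7 of them were higher than in -LIF-ESCs and 2, Nanog and Fut4, were lower. Dppa5a alone was at 2882 to 3090 TPM and was past the limma test in neither comparison with -LIF-ESCs.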

How the data were processed

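The 6 RNA-seq libraries were made from mESCs at P10, 2 in each of the groups -LIF-ESCs, LIF-ESCs and OSM-ESCs. The authors trimmed reads with Trimmomatic, aligned them to mm10 with HISAT2, assigned them to genes with featureCounts and deposited TPM values, which are reads per gene length scaled to the same total in every library (sums of 999949.5 to 999966.0). Because TPM is a share, a rise of some genes lowers the others. The annotation, strand setting, treatment of reads in overlapping genes and the step from counts to TPM are not given in the sources used here. The authors' own count-based test with DESeq2 was not repeated.

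The scale was log2(TPM + 1). The 3 groups were fitted together in limma (version 3.58.1, R version 4.3.3, lmFit, eBayes with a trend, two-sided) over the 18556 genes that reached 1 TPM in 2 or more libraries, with Benjamini-Hochberg adjustment over all of them. A gene was past the test at an adjusted p under 0.05. Residual degrees of freedom were 3 (5.3 including the prior), and the residual SD had a median of 0.086. Reads were recovered from TPM and GENCODE M21 exon length (GRCm38, 28405 symbols matched once, 99.4%), with 95.4% of values whole within 0.02 of a read. Intervals from these reads cover counting error only. Alternatives were a pseudocount of 0.1, no filter or one of 5 TPM, rescaling by the median ratio, removal of 37 mitochondrial genes, eBayes without a trend, only the 2 groups compared, a replicate block, limma voom on recovered reads and each library left out. The fit was also tested on simulated data.

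The members, gene lists, marker lists and tests were chosen with earlier results of these data known. Lists came from general knowledge, and the gene lists overlap. Among genes tested, Klf2 and Zfp42 are both targets and naive factors, and T is both a primed gene and a lineage factor. Sox1 and Sox17 are both relatives and lineage factors, and Pou3f1 and Sox3 are both relatives and primed genes. Named genes were the 6 members and the 3 genes nearest in profile to each (without Gm, Rik and Mir models and pseudogenes). The 2 highest and 2 lowest genes past the test of each list in LIF-ESCs against -LIF-ESCs were also named. So were genes that overlap a member or were looked up as possible copies of one. Promoters were from RefSeq (GRCm38.p6). Tables and plots used numpy 2.4.6, pandas 2.3.3 and matplotlib 3.10.9 under Python 3.11.15.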

Additional observations from a re-analysis of the deposited data

How the results depend on the processing

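Counts and log2 fold changes of the 6 genes were recomputed 318 times, leaving out the Nanog to Pou5f1 ratio, whose exact test cannot pass, and the removal of libraries outside a comparison. Of these, 311 kept their direction and their side of the threshold, although some settings change the error and not the fold. Requiring a log2 fold change of at least 1 moved the genes counted as higher from 5 to 3 and as lower from 1 to 0 in each comparison with -LIF-ESCs. Those counts are for the main scale, since Pou5f1, 1 of the 3, was below 1 after rescaling and by voom. Voom on recovered reads moved the genes lower in OSM-ESCs than in LIF-ESCs from 0 to 2, Sox2 at -0.167 and Nanog at -0.153, and the cause was not tested. Over all settings the log2 fold change of LIF-ESCs against -LIF-ESCs ranged from 0.92 to 1.12 for Pou5f1, 0.54 to 0.79 for Sox2, -0.75 to -0.57 for Nanog, 1.17 to 1.39 for Sall4, 0.38 to 0.62 for Utf1 and 1.81 to 2.15 for Foxd3. For OSM-ESCs against -LIF-ESCs the ranges were 0.93 to 1.13, 0.36 to 0.56, -0.92 to -0.68, 1.06 to 1.29, 0.27 to 0.53 and 1.86 to 2.21, in the same order. Without any one library the counts stayed at 5 and 1 in both comparisons.

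The replicate numbers are shared between groups, but deviations of same-numbered libraries correlated by -0.04 to 0.03, so they were not taken as pairs. With a replicate block the counts were again 5 and 1, with log2 fold changes for LIF-ESCs of 1.09 for Pou5f1 and -0.58 for Nanog. Over all genes the block moved those past the test from 12631 to 12224 for LIF-ESCs and from 12680 to 12289 for OSM-ESCs against -LIF-ESCs, and from 110 to 0 between OSM-ESCs and LIF-ESCs. The alternatives for the gene lists were chosen after seeing the data. A filter of 5 TPM, under which fewer of their genes are tested, moved the counts for LIF-ESCs to 5 higher and 5 lower relatives and to 1 higher and 4 lower lineage factors. With 2 libraries a group, an exact test of a single value cannot give a p below 0.333, so calls rest on a spread shared over groups, and Foxd3, with 113 to 617 reads, is the least precisely counted of the 6.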
